A study of Mus musculus with 7 samples.

Results

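The regions described here are the sites in mouse liver where retinoid X receptor α (RXRα) already had a peak under the control diet and where peaks of both retinoic acid receptors, RARα and RARβ, were called only under a diet with retinoic acid (RA). They were found by merging all overlapping or touching peaks of 6 lists, 1 per receptor and diet, into 87787 regions. A region was selected on 6 calls: a peak in both RXRα lists and in both RAR lists of the RA diet, and none in either control RAR list. This rule gave 3388 regions, 3.86% of all merged regions, and every one of them is counted in the results. Among the 25112 regions that had RXRα under both diets and no control RAR peak, termed pre-bound RXRα regions, the same 3388 made up 13.5%. The remainder were 2589 regions that gained only RARα, 4314 that gained only RARβ and 14821 that gained neither.

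The peaks came from chromatin immunoprecipitation and sequencing (ChIP-seq) of whole liver from male C57BL/6 mice aged 3 months, with 35-bp single-end reads. Each receptor had 1 library on the control (normal) diet and 1 on the RA diet, so no difference below has a replicate check, and 95% intervals cover counting error only. Feeding lasted 1 day according to the labels, whereas a longer treatment is described in the study's methods, both in general terms and for its other assays, so the duration behind these libraries is not settled. Whole liver holds hepatocytes and several other cell types, a peak list does not tell which of them carried a site, and stronger binding per cell cannot be told apart from binding in more cells. The 2 control RAR lists held 35521 peaks for RARα and 14968 for RARβ, the RA lists 44296 and 29467, and the RXRα lists 61128 and 59624. No read totals came with these lists, so the depth of each library is unknown, and the absence of a control RAR peak says only that none was called.

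RXRα is the common partner of a large group of nuclear receptors. It pairs with the RARs, which bind RA, and in liver also with the fatty acid receptor PPARα, the oxysterol receptors LXR and the bile acid receptor FXR. Such pairs bind direct repeats of a short half-site, and the number of bases between the repeats, given as DR1, DR2 and so on, affects which pair binds. RAR and RXR pairs classically use DR2 and DR5, and PPARα and RXR pairs use DR1. Without ligand, a bound RAR usually holds corepressors, and RA exchanges these for coactivators.

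Sequence at these sites could be read only where a 300-base promoter window of RefSeq (GRCm38.p6, 250 bases before to 50 bases from a transcript start, chromosomes covered by the searched table) lay wholly inside a region. This was so for 112 windows in 94 of the 3388 regions, and the distal sites were not searched. The half-sites searched were AGGTCA or GGGTCA or AGTTCA or GGTTCA on either strand, and pairs were taken in the same orientation with spacings of 0 to 8 bases. The windows below are printed 5′ to 3′ on the strand of the gene, with every half-site in capitals. The first is shown because fatty acid binding protein 1 (Fabp1) is a classical PPARα target, and its window spans chr6:71199629-71199928 on the plus strand.
Fabp1: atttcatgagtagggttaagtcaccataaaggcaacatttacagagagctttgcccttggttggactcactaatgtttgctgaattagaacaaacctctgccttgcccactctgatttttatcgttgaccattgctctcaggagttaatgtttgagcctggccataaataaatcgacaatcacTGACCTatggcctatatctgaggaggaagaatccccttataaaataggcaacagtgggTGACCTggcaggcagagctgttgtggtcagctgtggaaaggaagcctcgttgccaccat
Gm30058 (chr11:51657041-51657340, minus strand) held the only DR2 among the windows.
Gm30058: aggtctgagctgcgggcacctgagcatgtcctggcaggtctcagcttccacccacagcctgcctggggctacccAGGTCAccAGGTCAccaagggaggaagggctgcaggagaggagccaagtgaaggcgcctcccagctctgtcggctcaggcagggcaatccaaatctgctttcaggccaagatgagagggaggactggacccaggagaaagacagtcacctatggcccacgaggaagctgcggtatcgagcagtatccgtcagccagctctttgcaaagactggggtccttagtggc
Gm42364 (chr4:155228594-155228893, minus strand) held the only DR5.
Gm42364: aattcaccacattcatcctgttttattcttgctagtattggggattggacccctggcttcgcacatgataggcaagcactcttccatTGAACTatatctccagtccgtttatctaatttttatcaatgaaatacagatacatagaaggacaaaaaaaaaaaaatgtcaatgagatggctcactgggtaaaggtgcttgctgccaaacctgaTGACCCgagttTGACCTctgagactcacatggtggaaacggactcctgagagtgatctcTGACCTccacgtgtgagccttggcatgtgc

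At least 1 half-site was present in 71 of the 112 windows (63.4%, Wilson 95% interval 54.2 to 71.7), against 43.7% of all 32817 windows searched. The share was 58.7% in windows inside pre-bound regions that gained neither RAR, and 37.6% in regions called in all 6 lists. Direct repeats of exact half-sites were rare. They occurred in 2 of 112 windows (1.79%, 0.491 to 6.28), against 1.12% of all windows, a difference well inside the interval. The DR2 at Gm30058, AGGTCAccAGGTCA, began 176 bases before the start on the strand of the gene. The DR5 at Gm42364, TGACCCgagttTGACCT, lay on the opposite strand, with its first printed base 39 bases before the start. DR1 with 2 exact half-sites was found in 0 of 112 windows, which allows a share of up to 2.68% at 3 counts of 112, or 3.32% by the Wilson upper limit, against 0.222% of all windows. When 1 half-site was allowed to differ by 1 base, a search added after the Fabp1 window had been seen, DR1 was present in 7 windows (6.25%, 3.06 to 12.3) against 2.59% of all windows and 4.79% of the windows in regions that gained neither RAR. It was present in 7.23% of the windows in regions that gained only RARβ and 5.56% where only RARα was gained, so these classes were not distinguished by DR1. DR2 in the same search was present in 1.79% of the 112 windows (0.491 to 6.28), against 5.39% where neither was gained, 7.41% where only RARα was and 6.02% where only RARβ was, from 2 to 9 windows a class. Among the 7 windows with DR1, the match at Fabp1 was TGACCTaTGGCCT, on the opposite strand, with its first printed base 67 bases before the start. Neighbouring windows can share bases, so the 112 are not independent. A match describes the letters of a window and is not evidence of binding at that base.

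The first question was where the 3388 regions lay. Most were far from gene starts. Only 73 (2.15%, 1.72 to 2.70) had their midpoint within 1 kb of a protein-coding gene start and 703 (20.7%, 19.4 to 22.1) within 10 kb, while 1325 (39.1%) lay more than 50 kb away. The share within 1 kb was 5.14% with a score of at least 100 required of every peak and 5.65% with lists of equal length. Both settings also removed weak control RAR peaks. With the limit of 100 only in the 4 lists that had to hold a peak, and the control RAR lists whole, it was 2.41% (1.412 to 4.075). Gene spans covered 1772 of the midpoints (52.3%). Regions called in all 6 lists stood at the other end of the scale, with 54.8% of midpoints within 1 kb of a start.

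The share within 10 kb was also compared with the other pre-bound RXRα regions. It was lower than in regions that gained neither RAR (24.2%), a difference of -3.44 percentage points (Newcombe 95% interval -4.94 to -1.88), and lower than in regions that gained only RARβ (26.2%), a difference of -5.47 points (-7.35 to -3.56). Against regions that gained only RARα the difference was -0.30 points (-2.39 to 1.77), so these 2 groups were not distinguished by position. At 1 kb, the difference from regions that gained neither RAR was 0.0158 points (-0.486 to 0.605). In the quintile of pre-bound regions with the highest RXRα control scores, the share within 10 kb was 21.5% where both RARs were gained and 28.7% where only RARβ was, a difference of -7.22 points (-10.3 to -4.15). In the lowest quintile the order was turned against regions that gained only RARβ, at 26.4% and 22.5%, with an interval of the difference that spanned 0 (-4.00 to 12.8). Against regions that gained neither RAR, the difference in the highest quintile, which held 1788 of the 3388 regions, was -2.72 points with an interval that spanned 0 (-5.66 to 0.196). It was -6.86 points in the next lower quintile (-9.86 to -3.67) and -5.20 in the middle one (-9.03 to -0.864). In the 2 lowest quintiles it was 0.562 (-4.93 to 6.90) and 3.03 (-3.94 to 11.3), so the lower share was not seen at all RXRα scores. These intervals treat regions as independent, and the width of RXRα peaks also rose over the quintiles, from a median of 400.0 to 673 bp.

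**Figure D1:**
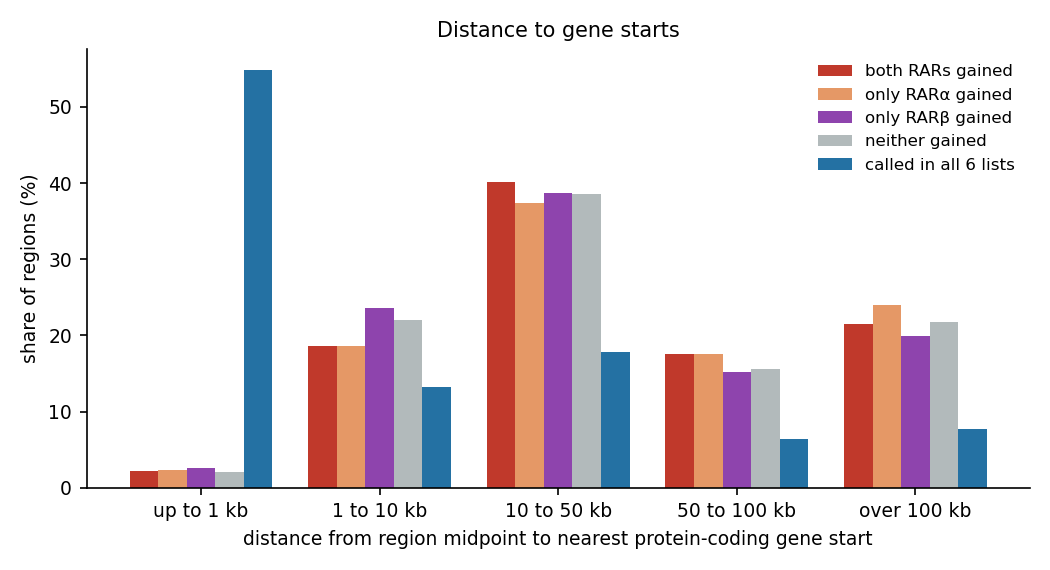
Share of regions (%) by distance from the region's midpoint to the nearest protein-coding gene start, in 5 groups of regions with 1 bar colour each. The regions where both RARs were gained follow the other pre-bound RXRα regions, with 2.15% within 1 kb, while 54.8% of the regions called in all 6 lists are in that bin.

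The strength of RXRα at these sites came next. Peak scores are the peak caller's own measure of how far a peak exceeds its background, they were not normalized between libraries, and scores of different lists are therefore set against each other only as percentiles within a list. Scores printed for single regions identify their peaks and are not comparable between lists. The calls of all 6 lists chose the regions, so the scores here are a description. Under the control diet, before any RAR peak was called, RXRα at the 3388 regions had a median score of 310.0, at percentile 78.3 of its list. Under RA the median was 350 at percentile 81.1. RXRα scored lower at the other pre-bound regions: the control percentile had a median of 55.0 where only RARα was gained, 64.4 where only RARβ was gained and 43.4 where neither was. The RXRα control peak was also wider, with a median of 668.5 bp against 474 bp where neither was gained.

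RARα and RARβ peaks at these regions ranked lower in their lists than RXRα did in its own. The RA score of RARα had a median of 79.1 (percentile 27.1) and ranged from 50.01 to 484.9. RARβ had a median of 91.3 (percentile 44.6) and ranged from 50 to 573.5. The median RARα percentile was 19.35 where only RARα was gained, and that of RARβ was 30.7 where only RARβ was. Regions with a control RAR peak are left out by the rule, and in regions called in all 6 lists the medians were 79.6 and 76.4. RXRα had the highest percentile of the 4 lists at 3143 regions (92.8%), and RARβ ranked above RARα at 2370 (70.0%). Only 324 regions (9.56%) had both RAR peaks above the median of their lists, while 1695 had both below it. A single region had an RARα peak among the top 10% of its list, against 761 regions with an RXRα control peak there.

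**Figure D2:**
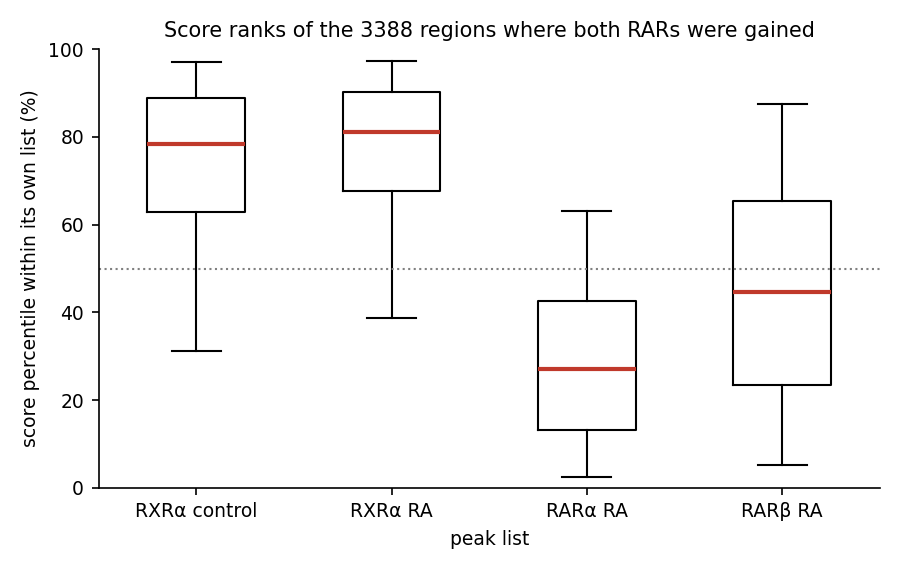
Percentile of the peak score within its own list (%) at the 3388 regions, for the 4 lists in which they were called. Boxes span the quartiles with the median in red, whiskers run from the 5th to the 95th percentile and the dotted line marks a list's median. Medians are 78.3 and 81.1 for RXRα and 27.1 and 44.6 for RARα and RARβ.

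The share of pre-bound sites where both RARs were gained rose over the whole range of prior RXRα scores. In the quintile with the lowest RXRα control scores (50.01 to 82.87), 129 of 5023 regions (2.57%, 2.17 to 3.04) gained both. The share was 4.26%, 8.32% and 16.7% in the next quintiles and reached 1788 of 5023 (35.6%, 34.3 to 36.9) in the highest. Gain of RARα alone stayed between 8.14% and 12.05% in all 5 quintiles. Gain of RARβ alone rose from 9.66% to 26.5%, and the share with neither fell from 79.6% to 28.4%. With both RA RAR scores at 100 or more, a limit added after the data were seen, the shares at the ends were 0.219% and 8.30%. The quintiles use the list that also entered the rule, and the depth of the RAR libraries, which bears on how many weak sites are called, is unknown.

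**Figure D3:**
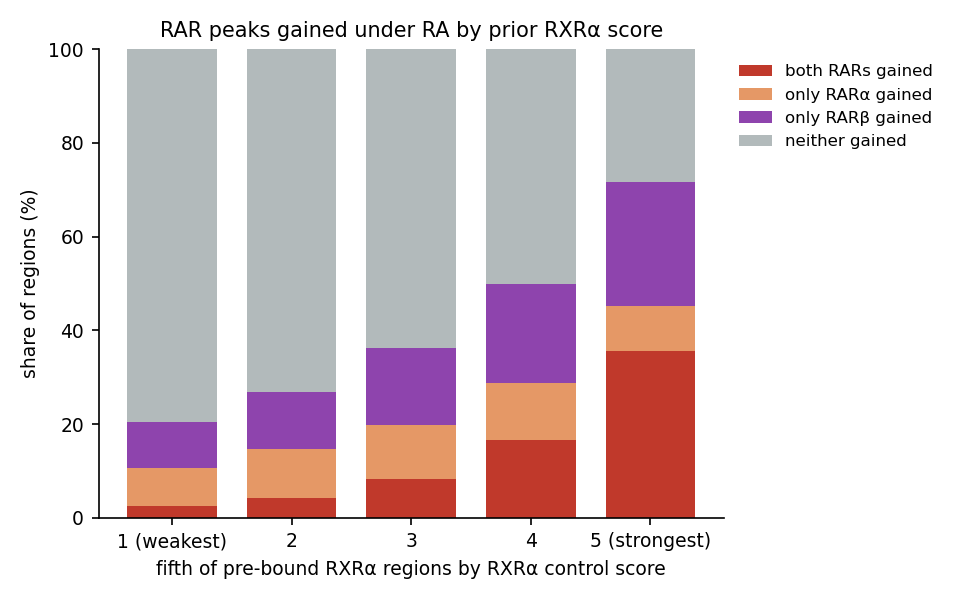
Make-up (%) of the 25112 pre-bound RXRα regions by quintile of RXRα control score (horizontal axis, weakest to strongest), split by which RAR peaks were gained under RA. Regions where both were gained grow from 2.57% in the weakest quintile to 35.6% in the strongest.

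The RXRα peak itself changed rank little between diets. The percentile under RA minus that under control had a median of 1.65 at these regions and was positive at 1977 (58.4%). Where neither RAR was gained the median was -2.09 and 45.8% were positive. Regions that gained only RARβ had a median of 1.78 (55.9% positive) and regions called in all 6 lists 1.01 (56.7%), so the rise was not particular to the sites where both RARs were gained. The quartiles at the 3388 regions were -3.89 and 9.49, so regions with a lower RXRα rank under RA were common too.

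Gains of the 2 receptors occurred at the same places more often than each did elsewhere. RARα was gained in 15.0% of all merged regions and RARβ in 19.8%, and among the pre-bound RXRα regions in 23.8% and 30.7%. All merged regions include those with a control peak of the same RAR, which could not gain it. The pre-bound regions exclude these, so the denominators are unlike and a higher share there is not read as a result. RARβ was gained at 3388 of the 5977 pre-bound regions that gained RARα (56.7%, 55.4 to 57.9) and at 4314 of the 19135 that did not (22.5%). Conversely, RARα was gained at 44.0% of the 7702 regions that gained RARβ and at 14.9% of those that did not. Because these counts share the calls of the rule, they are given without a test. The opposite pattern, both RARs called under control and neither under RA while RXRα stayed, was present in 139 of the 46703 regions with both RXRα lists, a count looked up after the data were seen. The RA lists were the longer ones for both RARs, and with each list limited to its 14968 highest-scoring peaks the rule gave 336 regions. No count of the opposite pattern is given at that length, so 139 and 3388 are not compared at equal list lengths.

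Within the regions, the peaks lay close together. The midpoints of the RARα and RARβ peaks had a median distance of 65 bp, and those of each RAR and the RXRα peak under RA had medians of 74 and 67 bp. The RXRα peaks of the 2 diets were a median of 58 bp apart. Each of the 4 lists contributed exactly 1 peak at 3123 regions (92.2%). With at least 25% of both widths shared between peaks, 3233 regions (95.4%, 94.7 to 96.1) held co-localised peaks, and the share was 54.0% at an overlap of 50%. The regions were built from overlapping or touching peaks, so short distances and overlaps follow largely from the rule and are a description only.

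Sites already occupied by a RAR under the control diet were often near but seldom adjacent. A control RAR peak lay within 500 bp of 161 regions (4.75%), within 1 kb of 346 (10.2%) and within 10 kb of 1930 (57.0%), at a median distance of 7.99 kb. The share within 10 kb was 56.0% for regions that gained only RARβ, at a median distance of 8.04 kb, 51.4% where only RARα was gained and 51.0% where neither was. Another region with both RARs gained was found within 10 kb of 362 (10.7%). By chromosome, the share of pre-bound RXRα regions that gained both ran from 10.1% on X (7.91 to 12.8) to 15.9% on chromosome 6 (14.2 to 17.8).

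Many of the regions were near the calling limit. The lower of the 2 RA RAR scores was under 60 at 1049 regions (31.0%), and both scores reached 100 at 558 (16.5%), 150 at 71 and 200 at 14. Just inside the limit were regions near Yae1d1 (RARα 65.08, RARβ 50), Tctex1d1 (64.63 and 50.01) and Bhlhe40, a circadian repressor (50.01 and 62.07). Just outside it were regions near Stxbp6, with a control RARα score of 50.02, Lpgat1, with a control RARβ score of 50.03, and Phlda1, with a control RARα score of 50.03. In all, 5871 regions met every condition except that the control RARα list also had a peak, and 882 except that the control RARβ list did.

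The strongest regions, ranked by the lower of their 2 RAR percentiles, were mostly distal. Of the 20 highest, 3 lay within 10 kb of the start of their nearest protein-coding gene, and 8 were inside a gene span. The first was near Kiss1, the kisspeptin gene, 7.17 kb downstream of its start at chr1:133328084-133330039. It had scores of 576.76 and 761.36 for RXRα under control and RA, 308.45 for RARα and 206.89 for RARβ. The region 26.4 kb inside Acot11, an acyl-CoA thioesterase gene, had an RXRα score of 1000.34 under control and 1454.7 under RA. Its RARα score was 234.52 and its RARβ score 489.93, the highest RARβ score of these 20. A region 110.0 kb downstream of the start of Prkaa2, which encodes a catalytic subunit of AMP-activated kinase, had RAR scores of 214.68 and 189.51. A pair of imprinted neighbours on chromosome 12 were among the 20: the region nearest to Dlk1 had scores of 217.46 for RARα and 424.21 for RARβ, and the one nearest to Rtl1 had 252.13 and 200.83. The region nearest to Ugt2b38, a glucuronosyltransferase gene, had 242.26 and 277.02. The others were nearest to Lipg, Zfand5, Ten1, Nos1ap, Dtl, Mterf3, Ccdc122, Etnk1, Dipk2a, Tmem248, Dysf, Sestd1, Plcb1 and Olfr1036. Nearest is a statement of distance and not of control.

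A few long genes held several of the regions. Vps13d, which encodes a lipid transfer protein needed for mitochondrial form, held 10 of its 20 pre-bound RXRα regions in the group. Itpr1, an inositol trisphosphate receptor, held 8 of 16 and Chn2 7 of 16. Arhgap26 had 6, Fyb2, Lpp, Rad51b and Zmiz1 5 each, and Agtr1a and Chd7 4 each. These genes were ranked by this count, so it is a description, and they span from 46.5 to 775 kb.

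At the gene level, 779 of 21536 protein-coding genes (3.62%, 3.38 to 3.87) had at least 1 of the regions within 10 kb of the start. Most of these genes were not without RAR before. A control RAR peak elsewhere within 10 kb of the start was present at 650 of them (83.4%, 80.7 to 85.9), against 63.3% of all genes, and 129 had none.

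Within 10 kb of the start and at the deposited calling limit, PPARα targets and plasma protein genes carried the regions at higher shares than genes in general. Among 44 PPARα targets 13 did (29.5%, 18.2 to 44.2), and among 41 plasma protein genes 11 did (26.8%, 15.7 to 41.9). Higher shares than in genes in general were not particular to these lists. They were also seen in 5 of 24 lipogenesis genes (20.8%, 9.245 to 40.5) and 5 of 29 xenobiotic genes (17.2%, 7.60 to 34.55). The same held for 4 of 28 bile acid genes (14.3%, 5.70 to 31.5) and 4 of 32 sterol and LXR genes (12.5%, 4.97 to 28.1). The other counts were 3 of 30 hepatocyte transcription factors, 2 of 16 coregulators, 1 of 17 circadian genes and 1 of 26 genes of glucose and amino acid metabolism. Retinoid genes stood at 1 of 31 (3.23%, 0.572 to 16.2), near the share of all genes. The PPARα targets also had many pre-bound RXRα regions that gained neither RAR, at 23 of the 44 against 3684 of the 21536 genes, and the plasma protein genes at 21 of the 41, so a high share there was also seen without RAR gain. With scores of at least 100 in the 4 lists that had to hold a peak, or within 1 kb of the start, 3 of the 44 PPARα targets had a region. Of the 41 plasma protein genes, 0 had one with that score limit and 2 had one within 1 kb. The share of all genes under these settings is not given here. The 3.62% of all genes holds only for 10 kb and the full set of regions, so these lower counts cannot be set against it. Of the cell type marker lists, the regions were near 1 of 5 hepatocyte and 1 of 6 endothelial markers, and near none of 6 stellate, 6 Kupffer and 5 cholangiocyte markers.

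**Figure D4:**
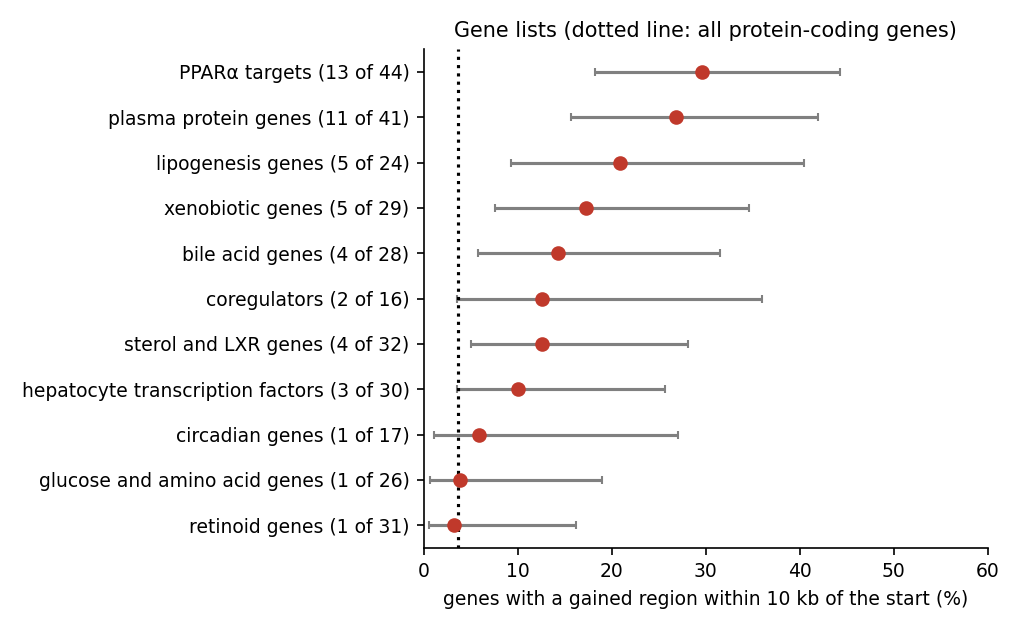
Share of the genes of each list with at least 1 region where both RARs were gained within 10 kb of the start (%, horizontal axis), with Wilson 95% intervals and counts beside each name. PPARα targets are at 29.5% and retinoid genes at 3.23%, and the dotted line is the 3.62% of all protein-coding genes.

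The 13 PPARα targets included genes of fatty acid transport, activation and oxidation, and others such as the hormone gene Fgf21. The members of the list that are described here follow in the order of their roles.

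Fabp1, the cytosolic fatty acid carrier of hepatocytes, had 2 regions and no control RAR peak within 10 kb of its start. The one at the start (chr6:71199286-71200443), which contains the window printed above, had RXRα scores of 563.41 and 449.94, an RARα score of 164.42 and an RARβ score of 78.13. The one 9.69 kb upstream had 130.64, 383.63, 128.14 and 102.91 in the same order. The RXRα percentile went from 92.7 under control to 87.3 under RA at the first and from 46.8 to 83.5 at the second.

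For mitochondrial uptake and oxidation of fatty acids, the region of Cpt2, a carnitine palmitoyltransferase, was 1.74 kb downstream, with RXRα scores of 652.42 and 706.16, RARα at 80.18 and RARβ at 130.81. Slc22a5, the carnitine transporter, had 753.66 and 683.33 for RXRα, 64.84 for RARα and 90.69 for RARβ. Acsl1, which activates fatty acids with coenzyme A, had one of the weakest RARα peaks, at 52.21, beside an RARβ score of 112.52. Decr2, an enzyme for unsaturated fatty acids in peroxisomes, had the highest RARβ score of the list, 394.73, and an RARα score of 71.04. Acaa1b, a peroxisomal thiolase gene, had 119.45 for RARα and 60.18 for RARβ. By percentile, RARβ ranked above RARα at Decr2 (97.8 and 20.8) and Cpt2 (66.1 and 28.1) and below it at Acaa1b (15.6 and 48.8).

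Fgf21, a hormone secreted by liver in fasting, had its region 4.42 kb downstream, with 200.57 and 291.52 for RXRα, 75.5 for RARα and 153.08 for RARβ. The regions near Vnn1, Acot1, Mgll and Txnip had RARα scores from 62.63 to 116.59 and RARβ scores from 55.61 to 143.63. Unlike Fabp1, each of the other PPARα targets named here had a control peak of at least 1 RAR within 10 kb of its start.

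**Figure D5:**
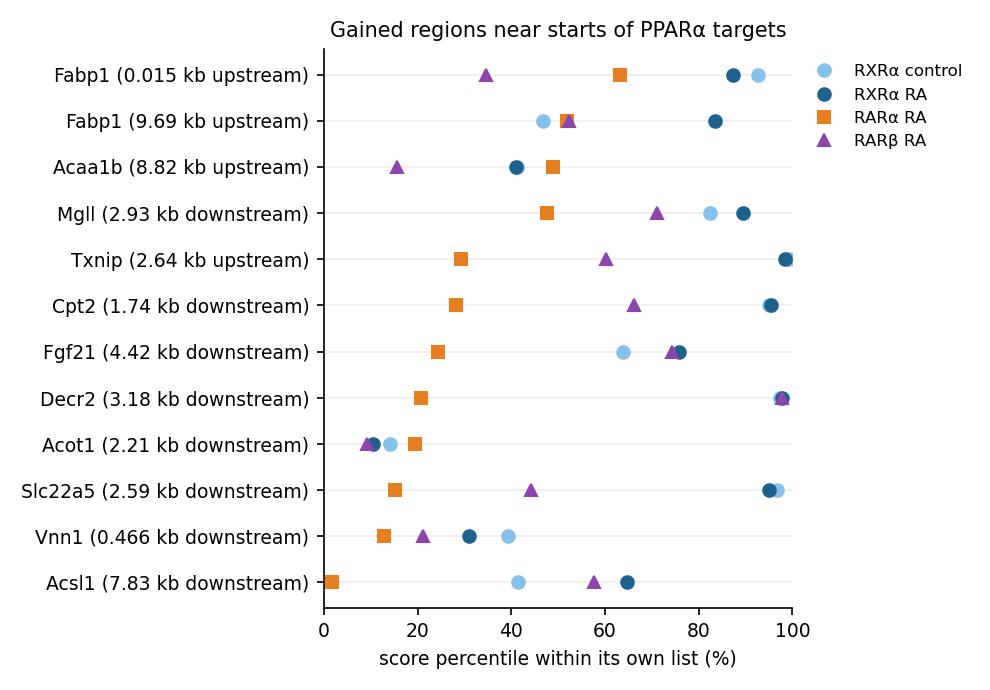
Percentile of the peak score within its own list (%) for the regions near the starts of the PPARα targets named in the text, with 1 symbol per list and the distance to the start beside each gene. The Fabp1 region at the start has RAR symbols at 63.2 and 34.6, and at most genes both RXRα symbols are to the right of the RARα square.

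In the bile acid list, the regions were near Nr0b2, Klb, Akr1d1 and Abcc4. Nr0b2 encodes SHP, a repressor of bile acid synthesis, and its region lay 9.98 kb downstream of the start with RXRα scores of 792.91 and 971.91, an RARα score of 88.47 and an RARβ score of 264.17. Klb, the co-receptor of FGF15 and FGF21 signals, had 804.16 and 775.37 for RXRα, 163.35 for RARα and 219.43 for RARβ. Akr1d1, a reductase of bile acid synthesis, and Abcc4, a bile salt exporter of the basolateral membrane, had weaker RAR peaks, with RARα at 53.41 and 53.32 and RARβ at 85.08 and 72.01.

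In the sterol list, the regions were near 4 genes, among them Hmgcs1, an enzyme of cholesterol synthesis, and Abcg8, which exports sterols into bile. Hmgcs1 had an RARα score of 172.84 and an RARβ score of 73.85, and Abcg8 had 51.71 and 90.71. Tgm2, a transglutaminase long known to be induced by RA, was the 1 retinoid gene, with a region 9.52 kb upstream that scored 344.91 and 165.53 for RXRα, 88.1 for RARα and 78.25 for RARβ. The control diet lists already had a peak of both RARs within 10 kb of the Tgm2 start.

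The plasma protein genes included neighbours that share regions or loci. Apoa1, Apoa4 and Apoc3, apolipoprotein genes in 1 cluster, were all assigned through a single region, 0.095 kb from the Apoc3 start, with RXRα scores of 271.99 and 476.34, RARα at 120.07 and RARβ at 71.82. The fibrinogen genes Fga, Fgb and Fgg also adjoin each other. The region over the Fgb start had an RARα score of 234.5 and an RARβ score of 54.63, while the one 8.71 kb downstream had 58.57 and 252.68. The percentiles of RARα and RARβ were 77.0 and 7.6 at the first and 8.5 and 92.2 at the second, so their order was opposite at these 2 sites of Fgb. Fgg had 212.57 for RARα and 73.74 for RARβ. The counts by list are counts of genes, and genes of a cluster are not independent.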

How the data were processed

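ChIP-seq libraries of RARα, RARβ and RXRα from mouse liver, 1 per receptor and diet, were taken from the authors' peak lists. The authors aligned reads to mm10 with Bowtie and called peaks with MACS in each library. The deposited score is the number MACS attached to a peak, by its convention a scaled −log10 of the p-value, never under 50 and not scaled between libraries. The submitters' processing notes also name CASAVA 1.4. An input library had no processed file and was not used here.

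Peaks that overlapped or touched were merged, and each region was scored as called or not in each list. Where a list had several peaks in a region, the highest score was used. Percentiles are ranks within a list. Groups came from the labels. The sites and gene lists were chosen with earlier results of these data known, and the lists came from general knowledge. Gene starts are the outermost ends of RefSeq spans (GRCm38.p6). Strand came from the RefSeq promoter table for 17492 protein-coding genes and by symbol from GENCODE M1 for 4044, and 351 genes without a strand were left out. Both sources were present for 14743 genes and differed for 39. Coordinates of GENCODE M1, which is on another build, were not used. Positions were assigned by midpoint.

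Shares have Wilson intervals and differences Newcombe intervals, both at 95%, from statsmodels 0.14.6 in Python 3.11.15. There is no test between diets, since each group is 1 library. Merging, distances and repeat searches were tested on simulated peaks and sequences with known answers. Named regions were the 20 with the highest lower RAR percentile, those within 10 kb of genes of the retinoid, PPARα, bile acid and sterol lists, the 10 genes with the most regions, and the 3 with the lowest RAR scores; a few that the rule names are not reported here. Plasma protein genes, the regions just outside the rule and the printed promoters were picked after their values were seen. Alternatives were score limits, lists of equal length, merging across 100 bp, other overlaps, exclusion of sites near control RAR peaks, other distances and a stricter half-site.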

Additional observations from a re-analysis of the deposited data

How the results depend on the processing

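The count of 3388 depended on the calling limit. It was 2100 with a score of at least 100 in every list, 540 with that limit in the 4 lists that had to hold a peak and the control RAR lists whole, and 336 with lists of equal length. Merging across 100 bp gave 3345, requiring overlaps of 25% gave 3233, and leaving out regions with a control RAR peak within 1 kb gave 3042. The share within 1 kb of a start was 5.14% with the limit of 100 in every list, 2.41% with it in the 4 lists and 5.65% with equal lengths. The share within 10 kb was 18.0% with the limit in the 4 lists. The share of co-localised regions was 97.1%, 97.2% and 97.0% under these 3 settings, 54.0% at an overlap of 50% and 98.2% at 1 base. Alternatives added after seeing the data changed the share of pre-bound regions that gained both RARs: in the strongest quintile it was 34.1% with co-localisation and 8.30% with both RA RAR scores of at least 100, and in the weakest quintile the latter gave 0.219%. Of 32 recounts of gene lists, 25 were lower and 0 higher. They used the distance of 1 kb or the score limit in the 4 lists, so higher counts were hardly possible. A limit on every list, or lists of equal length, also removed weak control RAR peaks, so regions that held one could enter the count by construction. Apart from this and from fewer peaks or genes entering by construction, the cause of these changes was not tested. Read depth is unknown, so a weak control RAR peak below the calling limit cannot be told apart from no binding. No paired analysis was possible because each receptor and diet has 1 library, and for the same reason no replicate could be left out.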

Other observations

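Some of the regions lay near microRNA genes, which were looked up after the data were seen. Of 1005 hairpins of RefSeq on GRCm38.p6, 48 had such a region within 10 kb and 4 were overlapped by one, namely Mir6715, Mir7k, Mirlet7b and Mirlet7c-2. Among protein-coding genes, 779 of 21536 (3.62%) had one within 10 kb of the start, with distance taken to the region's midpoint and not its edge. Several hairpins shared a region, so the 48 are not independent. Mir17, Mir18, Mir19a, Mir19b-1, Mir20a and Mir92-1 had the same one on chromosome 14, and Mir293, Mir294 and Mir295 the same one on chromosome 7. The hairpins Mirlet7b and Mirlet7c-2, of the let-7 family, shared 1 region on chromosome 15, with an RARα score of 69.22 and an RARβ score of 179.28. The region nearest to Mir21a, which is widely expressed and often raised in injured tissue, lay 1935 bp from the hairpin and had scores of 207.71 for RARα and 132.1 for RARβ. The region 131 bp from Mir375 had 57.15 and 77.58.

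Other genes of liver metabolism had regions with strong RXRα peaks. Scd1, the Δ9 fatty acid desaturase, had a region 8.69 kb upstream with RXRα scores of 821.75 and 1145.01, RARα at 75.67 and RARβ at 212.81. Fads1, another desaturase, had 188.49 for RARα and 180.54 for RARβ. Fmo5, a flavin monooxygenase, had 79.39 and 391.63. These genes were picked after their values were seen.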
